A study of Caenorhabditis elegans with 2 samples.

Results

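The exonic peaks of CEH-58 described here are 203 of the 809 listed peaks of the series, 25.1% (95% interval 22.1 to 28.2). They are peaks whose summit lay in an exon of a protein-coding gene and outside that gene's and every other protein-coding gene's promoter window. The 809 listed peaks are the 483 peaks of the authors' conservative list and the 326 of the 732 peaks of their optimal list that overlapped none of those. Promoter windows reached 1000 bp upstream and 200 bp downstream of every annotated transcript start of such genes. Summits within 200 bp of a tRNA, snoRNA or snRNA gene were also set aside. The rule used position only, and no peak height. Of the 306 listed summits in exons (37.8% of 809), 93 were set aside for a promoter window alone, 6 for an RNA gene alone and 4 for both.

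The data came from chromatin immunoprecipitation followed by sequencing (ChIP-seq) of whole young adult worms of Caenorhabditis elegans at 65 hours, in 1 group of 2 biological replicates. The strain was OP808, which carries the integrated fosmid transgene wgIs808 with ceh-58 fused to TY1, EGFP and 3xFLAG tags and the unc-119(+) rescue gene, in an unc-119(tm4063) mutant background. Both replicates share this genotype, and no worms without the transgene were analysed here, so the peaks are those of a tagged transgene and not of the endogenous protein. Chromatin was sheared by sonication to fragments of 200 to 800 bp and recovered with an antibody to GFP, and control alignments, not analysed here, entered the authors' processing. Whole animals were used, so a peak cannot be assigned to a tissue. Read depth is unknown for both libraries.

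CEH-58 belongs to the homeodomain proteins, transcription factors whose homeodomain typically contacts short AT-rich words such as TAATTA. Sites of such factors are usually studied in promoters and enhancers, whereas exons carry codons, and the last exon of a gene usually carries the stop codon and the 3' untranslated region (3' UTR). In the worm, coding exons are richer in G and C than introns, intergenic DNA and 3' UTRs. A ChIP-seq peak marks DNA recovered with the tagged protein, directly bound or not, and its summit is the position of strongest recovery. The irreproducible discovery rate (IDR) estimates how many peaks down to a given rank fail to recur between replicates, and the authors' lists begin at an IDR of 0.01, an IDR score of 830 on a scale that ends at 1000.

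Sequences are shown for 8 coding peaks, because the base composition at the summit is a main measured property of the exonic peaks and these show it at several levels. Each is the gene's own strand, 5' to 3', 201 bases from the RefSeq genome sequence of assembly WBcel235 (ce11), and the capitals mark the 21 bases centred on the summit. They belong to dos-3, which encodes a protein of the DOS family related to Notch ligands, srap-1, rpl-3 (a protein of the large ribosomal subunit), let-711 (a scaffold of the CCR4-NOT deadenylase complex), C39F7.1, the F-box gene fbxa-197, the C-type lectin gene clec-85, and W06H8.6.
dos-3, III:835964-836164, minus strand: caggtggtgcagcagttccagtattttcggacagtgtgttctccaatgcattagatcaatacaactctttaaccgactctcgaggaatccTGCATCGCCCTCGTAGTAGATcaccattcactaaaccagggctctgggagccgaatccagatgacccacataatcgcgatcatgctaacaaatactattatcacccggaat
srap-1, II:11211759-11211959, plus strand: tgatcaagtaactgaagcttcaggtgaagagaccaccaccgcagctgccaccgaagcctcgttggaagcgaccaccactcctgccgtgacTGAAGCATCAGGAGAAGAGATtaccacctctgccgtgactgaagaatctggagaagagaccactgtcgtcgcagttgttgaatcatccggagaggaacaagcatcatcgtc
rpl-3, III:3869242-3869442, plus strand: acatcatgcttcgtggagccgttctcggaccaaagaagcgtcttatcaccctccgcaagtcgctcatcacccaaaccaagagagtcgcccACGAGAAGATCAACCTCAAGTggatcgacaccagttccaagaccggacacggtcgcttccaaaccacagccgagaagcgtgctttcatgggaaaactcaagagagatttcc
let-711, III:6956171-6956371, plus strand: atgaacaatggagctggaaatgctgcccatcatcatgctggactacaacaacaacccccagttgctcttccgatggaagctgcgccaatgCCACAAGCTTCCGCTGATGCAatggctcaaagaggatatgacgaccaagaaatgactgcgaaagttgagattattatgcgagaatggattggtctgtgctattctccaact
C39F7.1, V:1262370-1262570, plus strand: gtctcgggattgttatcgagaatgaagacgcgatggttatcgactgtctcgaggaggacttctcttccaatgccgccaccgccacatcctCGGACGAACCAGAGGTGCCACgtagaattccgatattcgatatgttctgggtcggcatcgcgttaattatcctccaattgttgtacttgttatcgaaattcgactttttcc
fbxa-197, V:15868223-15868423, plus strand: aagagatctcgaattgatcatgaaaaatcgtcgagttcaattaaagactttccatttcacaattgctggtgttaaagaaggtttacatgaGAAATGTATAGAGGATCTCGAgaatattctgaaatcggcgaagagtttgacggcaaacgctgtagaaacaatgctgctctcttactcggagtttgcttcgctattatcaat
clec-85, IV:2855137-2855337, plus strand: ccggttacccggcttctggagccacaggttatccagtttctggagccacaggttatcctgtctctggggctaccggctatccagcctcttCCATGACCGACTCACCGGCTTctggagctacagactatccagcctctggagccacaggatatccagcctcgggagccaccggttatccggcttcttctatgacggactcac
W06H8.6, V:6224070-6224270, minus strand: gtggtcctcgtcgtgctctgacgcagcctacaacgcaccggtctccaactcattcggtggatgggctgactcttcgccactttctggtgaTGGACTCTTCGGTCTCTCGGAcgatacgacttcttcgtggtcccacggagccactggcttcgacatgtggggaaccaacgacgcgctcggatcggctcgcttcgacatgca

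The GC content of these 201-base windows was lowest at fbxa-197, 37.8%, and highest at W06H8.6, 59.7%. The clec-85 window had 58.2%, and the rpl-3 and srap-1 windows each had 53.2%. The dos-3, let-711 and C39F7.1 windows lay between, at 46.8%, 47.3% and 48.3%. The word TAATTA occurred in the C39F7.1 window alone among the 8.

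Exons held slightly more of the listed summits than their share of the genome, and slightly fewer than their share of the candidates. Bases of protein-coding exons that met the same distance rules, called eligible bases below, were 21643739, or 21.6% of the nuclear genome, beside 25.1% of the listed summits. Among the candidate peaks that the authors ranked between replicates, 29854 of 105945 (28.2%) had their summit in such exons, and 111 of these (0.372%) were in the conservative list, beside 0.456% of all those candidates. For the pooled reads 180 of 31874 exonic candidates (0.565%) were in the optimal list, beside 0.637% of all 114919. The exonic share called was therefore slightly below the background in both comparisons. Of the 203 exonic peaks 111 were in the conservative list, 23.0% of its 483 peaks, and 92 were in the optimal list alone, 28.2% of the 326. Not every strong exonic candidate was in the conservative list. Of the exonic between-replicate candidates outside it, 14 had a signal above the median of its exonic peaks. These 14 were not checked against the optimal list. Of the exonic pooled-read candidates outside the optimal list, 25 had a signal above the median of its exonic peaks. In both comparisons the highest signal of an exonic candidate outside the list was 143.7, beside 104.0 for the highest exonic peak.

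Peaks on either side of the rule's edges had the following values. The exonic peak nearest to a start downstream of it lay 205 bp from it with a signal of 65.2, and the exonic summit just outside lay at 199 bp with 64.6. On the upstream side the nearest exonic peak lay 1002 bp from a start with a signal of 70.0, and the nearest one set aside lay at 951 bp with 77.2. The exonic peak nearest to an RNA gene lay at 274 bp with a signal of 64.6, and the farthest one set aside for that reason lay at 172 bp with 74.7. The median distance of the 203 summits to the nearest protein-coding transcript start was 1313 bp, with 149 of them within 2000 bp and 5 over 5000 bp away.

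The summits lay toward the 3' ends of transcripts. Positions were taken along the longest spliced coding transcript with an exon at the summit, from 0% at the 5' end to 100% at the 3' end. A non-coding isoform was used only where no coding one covered the summit. The median position was 66.3% with middle values from 39.4 to 84.5%, beside a median of 53.5% for eligible bases. The final 20% of the transcript held 68 summits, 33.5% (27.04 to 40.4), beside 19.8% of eligible bases. The first 20% held 14, 6.90%, beside 11.3%. The 94 summits in a last exon made up 46.3% (39.3 to 53.4), beside 23.2% of eligible bases, while 99 summits (48.8%) lay in internal exons, which hold 73.0% of eligible bases. A first exon held 9 summits, and 1 lay in the only exon of its gene. Exonic between-replicate candidates outside the conservative list, which can include optimal-list peaks, did not share this pattern. The median position of these 29743 was 52.3%, and 20.6% of them lay in a last exon.

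**Figure D1:**
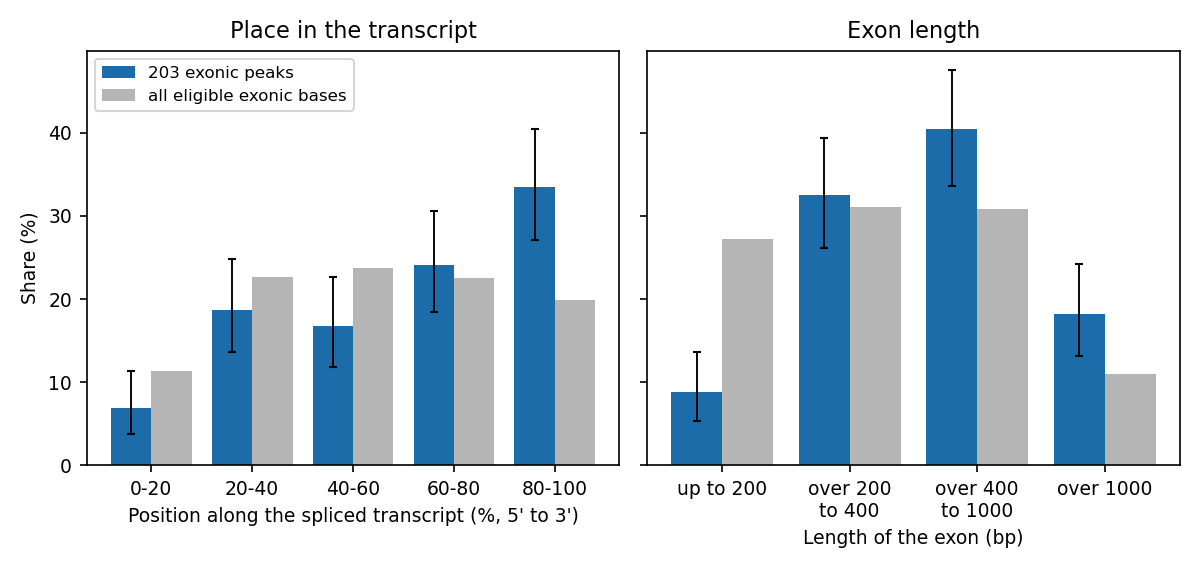
Share of the 203 exonic peaks (bars with exact 95% binomial intervals) and of all eligible exonic bases (grey) by position along the spliced transcript, in steps of 20% from 5' to 3', and by length of the exon in bp. The peaks exceed the bases in the final step, 33.5% against 19.8%, and fall below them in exons of up to 200 bp, 8.87% against 27.2%.

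Most of the summits, 160 of 203 or 78.8% (72.5 to 84.2), lay in coding sequence, beside 87.7% of eligible bases. The 3' UTR held 39 summits, 19.2% (14.03 to 25.3), beside 10.8% of eligible bases. Of these 39, 38 were in a last exon, and the median distance to the 3' end of the transcript was 156 bp in the genome. No summit lay in a 5' UTR, so the share could be as high as 1.48%, which is 3 counts of 203, beside 1.26% of eligible bases. The remaining 4 summits lay in an exon of tos-1 that is annotated in a non-coding isoform. The shift to the 3' end was larger in the stricter list. The median position was 73.6% for conservative peaks and 60.8% for peaks of the optimal list alone. The 3' UTR share was 24.3% (16.7 to 33.4) for the former and 13.0% (6.93 to 21.7) for the latter. These intervals overlap, and that of the optimal list alone includes the 10.8% of eligible bases.

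Exons with a summit were long. Their median length was 472 bp (middle values 320.5 to 870, range 74 to 4558), beside a base-weighted median of 334 bp over eligible bases. Exons of up to 200 bp held 18 summits, 8.87% (5.34 to 13.7), against 27.2% of eligible bases, and exons over 1000 bp held 37, 18.2%, against 11.0%. All 203 peaks were 236 bp wide, and 111 of them lay wholly within the exon. The shortest exon with a summit was exon 3 of F46H5.7, 74 bp of coding sequence, and the longest was the last exon of tos-1. In unc-54, the major myosin heavy chain of body-wall muscle, the summit lay in exon 6 of 9, which is 3666 bp long. It was the only exonic peak in the 57 muscle genes examined, 0.493% of the 203 peaks beside 1.06% of eligible bases.

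GC content within 50 bp of the summit had a median of 47.5%, beside 39.6% for eligible bases. It was 55% or higher at 42 summits, 20.7% (15.3 to 26.9), beside 2.69% of eligible bases, and below 35% at 9, 4.43%, beside 24.7%. The difference held within each kind of sequence. The 160 coding summits had a median of 49.5% against 40.6% for eligible coding bases, and 144 of them (90%, 84.3 to 94.2) lay above that median. The 39 summits in 3' UTRs had 38.6% against 30.7%. At 156 of 203 summits (76.8%) GC content was above that of the flanks 200 to 250 bp away, whose median was 38%. At 132 (65.0%) it was above that of the whole exon, whose median was 44.98%. The same counts were not taken over eligible bases, and the flanks can lie outside the exon. These shares are therefore not set against a background. Exonic between-replicate candidates outside the conservative list had a median of 42.6%, between those of eligible bases and of the exonic peaks.

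**Figure D2:**
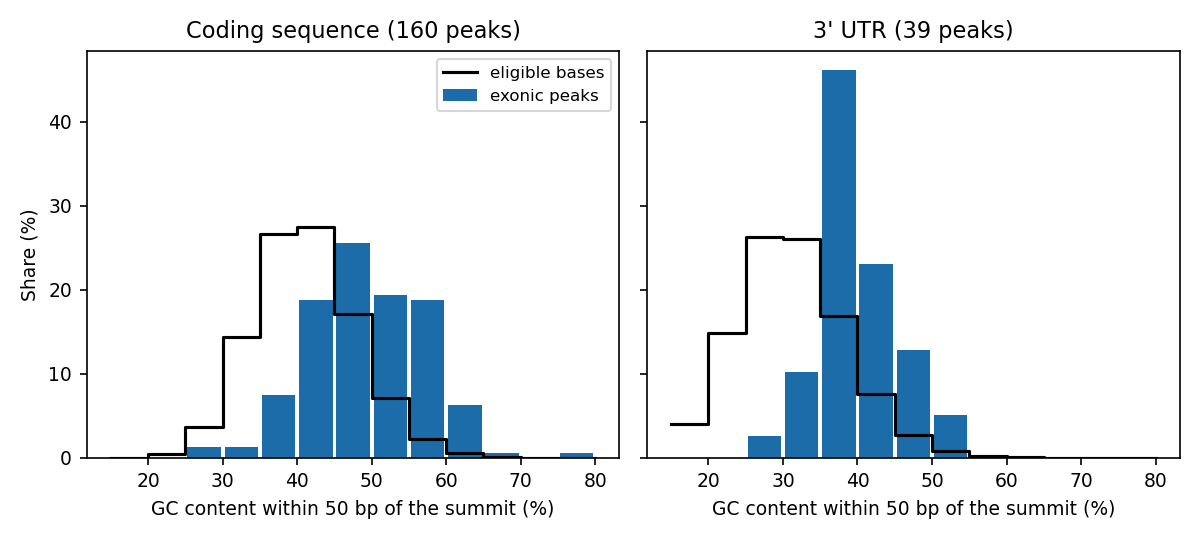
Distribution of GC content within 50 bp of the summit for exonic peaks in coding sequence (160) and in the 3' UTR (39), as bars of 5 percentage points, with the same for eligible bases as a black line. In both, the peaks are shifted to higher GC, with medians of 49.5% against 40.6% and 38.6% against 30.7%.

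High GC content was not a property of the exonic peaks alone. The other 606 listed peaks had a median of 48.5%, and their flanks 36%. The lowest value of the 203, 25.7%, was at mcm-4 and the highest, 77.2%, at F55A12.18. Signal did not follow GC content across the 203 peaks (Spearman's rho -0.00633), a description over peaks of the same 2 libraries. Exon length and signal gave a rho of -0.0719 and position along the transcript and signal one of 0.17.

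Sequence at the exonic peaks was mostly unique in the genome. At 190 of 203 (93.6%, 89.3 to 96.5) at least 90% of the 31-base words within a 200 bp window occurred once in the nuclear genome, beside 376 of the other 606 listed peaks (62.05%, 58.05 to 65.9). The exceptions included tos-1 peaks with 18.2, 18.2 and 61.2% unique words, vit-2 with 48.8% and srap-1 with 57.6%. Also among them were ubq-1, which encodes repeated ubiquitin units, with 72.9%, and iars-2 with 84.1%. In such windows reads can come from more than 1 place.

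Short words were searched on both strands within 50 bp of each summit and in 214391 windows of equal length centred in eligible bases. The homeodomain word TAATTA was found at 6 summits, 2.96% (1.09 to 6.32), and in 2.78% of windows. TTAATT was found at 13, 6.40%, beside 9.17%, and CAATTA at 10, 4.93%, beside 7.18%. TTAATT and TAATTA share 5 bases where they occur together as TTAATTA. Because AT-rich words become rarer as GC content rises, the 106 summits between 41.6 and 52.5% GC were also set beside the 84997 windows in that band, a comparison added after values were seen. There TAATTA was at 3 of 106 summits, 2.83% (0.588 to 8.05), beside 0.792% of windows. TTAATT was at 7, 6.60% (2.70 to 13.1), beside 2.88%, and CAATTA at 8, 7.55% (3.31 to 14.3), beside 3.99%. The intervals include the window values for all 3 words. The GATA-type word TGATAA was at 9 of 203 summits (4.43%, windows 9.45%), the E-box CACGTG at 6 (2.96%, 2.32%), GAGAGA at 14 (6.90%, 5.52%), AAAAAA at 23 (11.3%, 19.8%), CTGCGT at 3 (1.48%, 1.81%) and the tRNA B-box core GGTTCGA at 2 (0.985%, 0.764%). In the same GC band TGATAA was at 6 of 106 summits, 5.66% beside 6.07% of windows, and AAAAAA at 10, 9.43% beside 8.81%, so the lower shares of both words over all 203 summits were not seen there. In that band CACGTG was at 2 (1.89%, windows 3.36%) and GAGAGA at 9 (8.49%, 6.15%). CTGCGT and GGTTCGA were at 0 of 106, which allows a share of up to 2.83%, beside 2.52% and 0.958% of windows. A word match is a description of these letters and not a site.

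Signal of the exonic peaks was moderate. The authors' signal value, taken from the list that holds the peak, had a median of 63.3 (middle values 57.7 to 69.6, range 2.80 to 104.0), beside 65.8 for the other listed peaks. Within the conservative list the medians were 67.8 for the 111 exonic peaks and 74.4 for the other 372. Within the optimal list alone they were 59.4 and 59.8. Exonic peaks were 7 of the 100 highest listed peaks (2.86 to 13.9%) and 31 of the 100 lowest (22.1 to 41.0%), beside 25.1% of all listed peaks. The interval for the lowest includes that share. The highest IDR score was reached by 58 exonic peaks, 28.6% (22.5 to 35.3), and by 240 of the other 606, 39.6% (35.7 to 43.6). Coding summits had a median signal of 62.4 and 3' UTR summits 67.3. The medians for internal and last exons were 61.7 and 65.6.

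**Figure D3:**
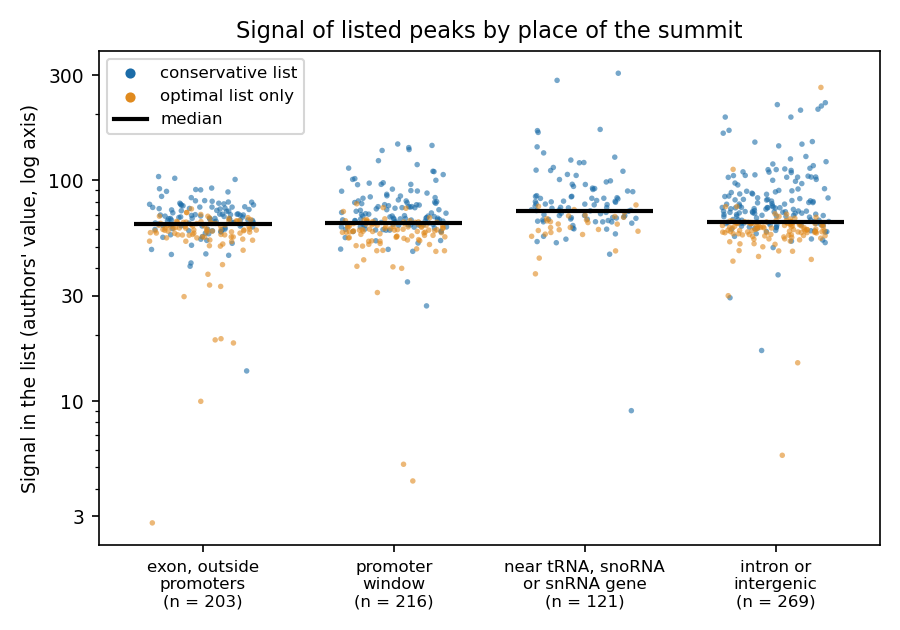
Signal of all 809 listed peaks (authors' value, log axis) by place of the summit, with one point per peak coloured by list and a black line at the median. Exonic peaks reach 104.0 at most, while peaks near RNA genes and in introns or between genes reach above 200.

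The replicates differed in which exonic peaks were high. Each replicate's signal is that of its own strongest candidate overlapping the peak, unscaled for depth. Replicate 1 had a candidate at 202 of the 203 peaks, with a median of 35.5 (16.0 to 72.4), and replicate 2 at 197, with a median of 28.6 (12.2 to 52.2). Replicate 1 was higher at 149 peaks, and the median ratio of replicate 1 to replicate 2 was 1.31 over the 196 peaks with both values, close to 1.26 at the other listed peaks. Across those 196 the replicates' signals were not positively related (Pearson's r of log2 values -0.0163, Spearman's rho -0.161), whereas 579 other listed peaks gave 0.395 and 0.178. These are descriptions over peaks that were chosen on both replicates jointly. The other listed peaks also span a wider range of signal in the lists, up to 305.7 against 104.0. The correlations of the 2 sets are therefore not directly comparable.

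Few exonic peaks were called in a replicate on its own. A peak of replicate 1's own thresholded list overlapped 25 of them, 12.3% (8.13 to 17.6), beside 18.4% of all listed peaks. For replicate 2 the count was 10, 4.93% (2.39 to 8.87), beside 10.6%. Only 2 overlapped a peak in both, 0.985% (0.120 to 3.51), beside 6.06% of all listed peaks, and 170 (83.7%) overlapped neither. The shares in both lists for the other places were 4.63% of 216 promoter peaks, 9.09% of 121 peaks near RNA genes and 9.67% of 269 remaining peaks. Under the same rule the replicates' own lists held 27 and 12 exonic peaks.

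**Figure D4:**
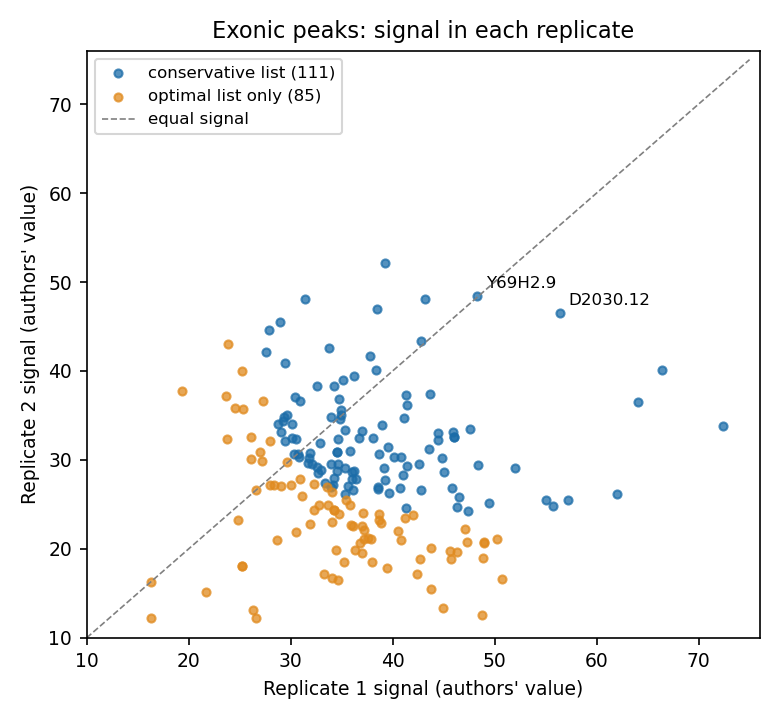
Replicate 1 against replicate 2 signal (authors' values, own candidate lists) for the 196 exonic peaks with a candidate in both, coloured by list, with a dashed line of equal signal. D2030.12 and Y69H2.9, the 2 peaks in both replicates' own lists, are named, and points that are high in one replicate are mostly not high in the other.

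The exonic peak of highest signal lay in the last exon of D2030.12 (chromosome I, 7585141 to 7585376, WBcel235), with 104.0 in the list, 56.4 in replicate 1 and 46.5 in replicate 2. The summit in the 3' UTR of Y69H2.9 (V:18705434-18705669) had 92.2, with 48.3 in replicate 1 and 48.4 in replicate 2, and an annotated pseudogene covers the same position. These were the 2 exonic peaks found in both replicates' own lists. The next peaks were in lmd-2, a gene for a LysM-domain protein, with 102.2 (72.4 and 33.8), and in the 3' UTR of iars-2, a mitochondrial isoleucyl-tRNA synthetase, with 100.9 (64.1 and 36.5). Both were in replicate 1's own list and absent from that of replicate 2. The dos-3 peak had 91.6 (66.4 and 40.1), and the srap-1 peak, in exon 15 of 25, had 90.5 (43.6 and 37.4). The srap-1 peak was in neither own list.

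Below these were R12E2.13 with 88.6 (38.4 and 40.1), the cuticle collagen gene col-65 with 84.6 (37.8 and 41.7), W04B5.3 with 83.5 (44.9 and 30.2), the polyubiquitin gene ubq-1 with 80.9 (31.4 and 48.1), the cyclophilin gene cyn-4 with 80.8 (55.04 and 25.5), btbd-10 with 80.4 (34.3 and 38.4) and gmap-1 with 79.7 (35.1 and 39.03). Of these 7, all but W04B5.3 had the summit in the last exon. Among peaks of the optimal list alone the highest were F46H5.7 with 74.2 (45.6 and 19.8), the splicing factor gene rsp-3 with 71.5 (50.7 and 16.6), cey-3 (a Y-box RNA-binding protein) with 71.5 (50.2 and 21.1), let-711 with 70.0 (48.9 and 20.8) and C39F7.1 with 68.8 (25.2 and 40.04). Replicate 1 was more than 2 times as high as replicate 2 at the first 4 of these and lower at C39F7.1.

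The 203 peaks fell in 192 genes, and 9 genes held 2 or more. The gene tos-1, used as a reporter of alternative splicing in the worm, held 4, more than any other, all in the conservative list and all in its last exon as annotated in isoform K07B1.6e. The peaks ran from V:9340393-9340628 to V:9342913-9343148, and the gene is on the minus strand. Counted from the 3' end of the gene, their summits lay at 1652, 3146, 3607 and 4172 bp. Their signals were 89.1 (38.4 in replicate 1 and 46.9 in replicate 2), 90.8 (43.2 and 48.1), 71.2 (28.9 and 45.5) and 73.8 (44.5 and 33.0). None was in both own lists, and no coding isoform of tos-1 includes these positions. The 2 peaks at 3146 and 3607 bp had 18.2% unique words, the one at 4172 bp 61.2%, and the one at 1652 bp was fully unique.

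**Figure D5:**
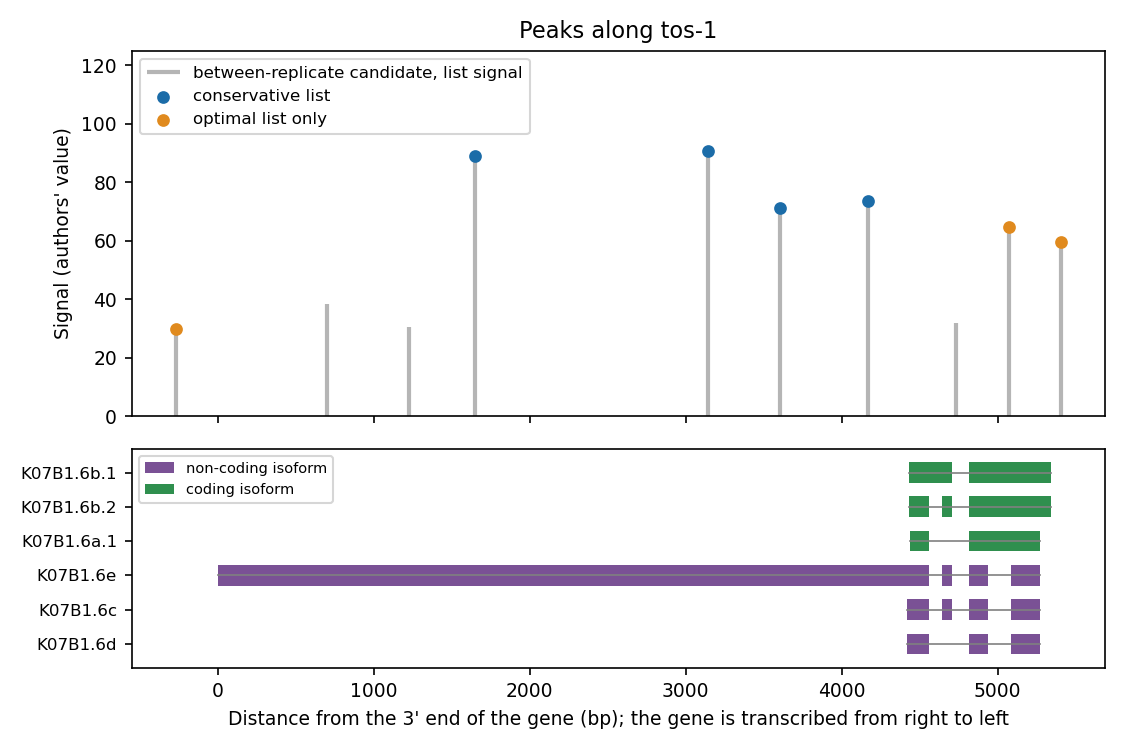
Signal (authors' value) of peaks along tos-1 by distance from the 3' end of the gene, with grey lines for between-replicate candidates and dots for listed peaks, above the annotated isoforms (non-coding in purple, coding in green). The 4 conservative peaks fall in the long last exon of isoform K07B1.6e. The optimal-list dots at 5071 and 5403 bp are in promoter windows and the one left of 0 lies in the neighbouring gene coq-6.

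In the other 8 genes there were 2 peaks each. The eggshell gene cbd-1 had 76.6 (57.2 and 25.5) in its 3' UTR and 48.6 (34.6 and 30.9) in exon 5 of 10. The RISC-associated gene vig-1 had 63.1 (29.7 and 35.01) in coding sequence and 58.4 (29.1 and 33.1) in the 3' UTR of the same exon. Y43F8C.6 had 64.1 (33.9 and 34.8) and 57.6 (31.8 and 30.3). The Shank scaffold gene shn-1 had 59.6 in each of exons 8 and 9, and glh-1, a P-granule helicase of the Vasa family, had 37.5 (21.7 and 15.1) and 33.1 (26.4 and 13.1). W06H8.6 had 64.5 (46.3 and 19.7) and 18.3, the latter with 16.0 in replicate 1 and no candidate in replicate 2.

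Peak rows that overlap one another share their reads. There were 4 such pairs among the 203 peaks, at summit distances of 199 to 207 bp, in which the signals were 69.4 (ZK418.11) and 13.7 (cpg-2), 65.0 (C26D10.3) and 2.80 (hel-1), 48.2 and 9.97 (both mcm-2), and 18.9 and 19.2 (both C27A12.4). The IDR scores within each pair differed by at most 1. In 3 pairs 1 peak had a signal far below the other, so these low signals belong to peaks beside a higher one. Of the 203 peaks, 18 had a signal under 50.

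Several gene groups are described by their number of peaks beside their share of eligible bases, with no set test. Cytosolic ribosomal protein genes held 3 peaks (rpl-3, rps-21 and rpl-7A), 1.48% of the 203, beside 0.0615% of eligible bases. The rps-21 peak is the one at the edge of the promoter window, 205 bp from a start. Its exon is 88 bp long, so the peak reaches beyond it. The rpl-3 peak had 75.6 (61.97 and 26.2). The yolk protein genes vit-6 and vit-2 held 1 each, 0.985% beside 0.133%, with 75.6 (48.4 and 29.5) at vit-6, in the last exon. The vit-2 peak had 61.5 (29.4 and 34.8), and 48.8% of the words in its window were unique, so its reads can come from elsewhere. Genes of cuticle collagens and cuticlins, components of the worm's outer cuticle, held 6 (col-65, col-97, col-50, col-175, col-176 and col-17), 2.96% beside 0.960%. These are counts of few peaks.

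Genes of the germline and P granules held 5 peaks in 4 genes (pie-1, car-1, hrde-1 and glh-1), 2.46% beside 0.534% of eligible bases, with 66.6 (39.6 and 26.3) at pie-1, a maternal regulator of germline fate. Proteasome and ubiquitin genes held 3 (ubq-1, rpn-2 and pbs-5), 1.48% beside 0.399%, and RNA processing genes 3 (rsp-3, rsp-1 and rsp-8), 1.48% beside 0.812%. Channels and transporters held 4 (twk-9, lgc-31, acr-10 and mec-4), 1.97% beside 2.03%. The twk-9 peak, in a potassium channel gene, had 65.8 (39.5 and 31.4).

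Several groups held 1 peak each, 0.493% of the 203, and most of these have a larger share of eligible bases. Detoxification enzymes and short-chain dehydrogenases have 1.67% of eligible bases, with a peak of 65.7 (38.9 and 22.9) at dhs-25. F-box and MATH-BTB genes have 1.496%, with 67.7 (41.96 and 23.8) at fbxa-197. Nuclear hormone receptors have 1.38%, with 62.05 (36.1 and 27.9) at nhr-85, where the protein-coding gene npr-14 is annotated at the same position. Chromatin and transcription genes have 1.37%, with 55.4 at the histone demethylase gene utx-1 (52.7 in replicate 1 and no overlapping candidate in replicate 2).

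C-type lectins and immune effectors have 1.12% of eligible bases, with a peak of 66.1 (32.9 and 31.9) at clec-85. Named kinases have 0.973%, with 62.2 (38.6 and 26.9) at the polarity kinase gene par-1. Basement membrane and matrix genes have 0.678%, with 51.4 at the collagen gene let-2 (34.7 in replicate 1 and no overlapping candidate in replicate 2). The unc-54 peak, the 1 peak of the muscle genes described above, had 59.5 (28.0 and 27.2). Heat shock proteins and chaperones have 0.282%, with 61.8 (45.7 and 18.8) at the mitochondrial chaperone gene hsp-6, and aminoacyl-tRNA synthetases have 0.235%, with the peak at iars-2. Of these groups, heat shock proteins and aminoacyl-tRNA synthetases alone have a smaller share of eligible bases than of peaks.

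Chemoreceptor genes, a family of 1310 genes with 4.40% of eligible bases, held none of the 203 peaks. None lay in histone, translation factor, major sperm protein or homeobox genes either, and these have from 0.0314 to 0.537% of eligible bases each, too few for a count of 0 to differ from it detectably. A count of 0 of 203 allows a share of up to 1.48%, which lies below the chemoreceptor share. No listed peak lay within 5000 bp of ceh-58 itself (chromosome II).

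A pair of gene groups was added after the genes had been seen, and is descriptive only. Eggshell and vitelline layer genes held 6 peaks in 5 genes (cbd-1, perm-4, cpg-1, perm-1 and cpg-2), 2.96% beside 0.153% of eligible bases. The cpg-2 peak (13.7) overlaps the higher peak of ZK418.11 (69.4) and shares its reads. Cell division, tubulin and DNA replication genes held 10 in 9 genes, 4.93% beside 1.07%. They included the replicative helicase genes mcm-4, with 78.8 (49.4 and 25.1), and mcm-2. Also among them were the kinesin genes klp-19 and klp-7, the spindle gene tpxl-1, top-2 and tbb-2. The 10 peaks include the overlapping pair at mcm-2, with 48.2 and 9.97.

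By chromosome, the share of peaks was 21.2% on I (16.0% of eligible bases), 15.8% on II (16.2%), 20.2% on III (14.6%), 12.8% on IV (15.5%), 18.7% on V (21.4%) and 11.3% on X (16.4%). The 95% intervals include the share of eligible bases on every chromosome except III, where the interval is 14.9 to 26.4%. At 6 summits another gene is annotated at the same position, namely 3 protein-coding genes, 2 non-coding RNA genes and 1 pseudogene, so the peak cannot be assigned to either gene.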

How the data were processed

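ChIP-seq of CEH-58 was done in 2 biological replicates of 1 group. The authors deposited peak lists on assembly ce11, per the labels. Per peak the authors deposited a signal value, an IDR score and a −log10 q-value in columns without a header. The q-value entered no result. Read depth is unknown, and the aligner and peak caller have no name given in the sources used here. Replicate values are the highest signal of an overlapping candidate (at least 1 bp) in each replicate's own candidate list, unscaled.

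Summits were placed on WBcel235 with Ensembl release 115 gene models (19973 protein-coding genes) in Python 3.11.15, numpy 2.4.6 and scipy 1.17.1. Position and exon came from the longest spliced coding transcript with an exon at the summit, or from a non-coding isoform where no coding one covered it. GC content was taken over 101 bp, and a window counted as unique from 90% of 31-base words in 200 bp. Shares carry exact Clopper-Pearson 95% intervals, which cover counting error only. Where a count is 0, the limit printed is 3 counts of the total instead. No test between conditions exists. The routines for placement, GC content and repeated words were tested on simulated data.

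Members, gene lists and motifs were chosen with earlier results of these data known. Genes named with values are those of the 15 highest conservative peaks and the 5 highest optimal-only peaks, genes with 2 or more peaks, peaks in both own lists (up to 10), the highest peak of each list, and the extremes of exon length and GC content. Any other gene was picked with its values in view. The comparison with candidates outside the conservative list, the overlapping pairs, the GC band and 2 of 24 gene lists came later, after values were seen. Settings tried were other peak sets, promoter windows, exon rules, GC and word windows, single replicates, and 2 added later (without overlapping peaks, without tos-1).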

Additional observations from a re-analysis of the deposited data

How the results depend on the processing

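Over 8 results and 16 settings, 80 of 107 values stayed within the limits used, which were 1.5 times for the number of peaks, the 95% interval for shares, and 1 SD between the replicates' own lists for medians. The number of exonic peaks was 111 in the conservative list only, 58 at the highest IDR score and 111 with the whole peak within 1 exon, and 12 to 27 in single replicates' own lists. Within 1.5 times, it was 237 with a promoter window of 500 bp upstream and 100 bp downstream, 136 with one of 2000 and 500 bp, and 180 in the optimal list. The coding share was 72.1% in the conservative list, 67.2% at the highest IDR score and 41.7 to 59.3% in single replicates. Median exon length was 807 bp with the whole peak within 1 exon and 476 to 663 bp in single replicates. Median GC content was 44.6% at the highest IDR score, 49.02% within 25 bp, 45.3% within 100 bp and 43.6 to 45.05% in single replicates. Median signal was 71.9 at the highest IDR score and 41.8 to 49.01 in single replicates, where it is each replicate's own signal value. Median position was 73.6% in the conservative list, 69.6% at the highest IDR score, 61.4% with the shorter promoter window, and 78.2 to 81.6% in single replicates. The unique share was 83.3 to 92.6% in single replicates. The share in both own lists was 7.41 to 16.7% there, which is 2 peaks of 27 and 2 of 12. It is higher than over 203 peaks because each total holds only peaks of an own list. The cause of the other moves was not tested, except that a stricter list holds fewer peaks. The settings without overlapping peaks and without tos-1, chosen after seeing the data, moved no value past these limits. No paired analysis was possible because there is 1 group. Unknown depth limits how far replicate signals can be compared.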
